A study of Mus musculus with 12 samples.

Results

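The 10 genes described here are established transcriptional targets of p53 in mouse cells: *Cdkn1a*, *Mdm2*, *Ccng1*, *Bax*, *Bbc3*, *Phlda3*, *Sesn1*, *Sesn2*, *Zmat3* and *Gdf15*. They were taken by symbol from an expression table of 54532 genes in mouse colonoids, the colonic epithelial organoids grown from crypt stem cells. All 10 were found, and all 10 passed the filter on low values that left 12740 genes for testing. p53 is a transcription factor that is held at a low level by the ubiquitin ligase MDM2 and is stabilised by DNA damage and other stresses. It then switches on genes for cell cycle arrest, apoptosis and metabolic repair, and *Mdm2* itself, which closes a feedback loop. In the intestinal epithelium this response is known for the arrest and death of crypt cells after irradiation, and several of the targets, *Gdf15*, *Sesn2* and *Cdkn1a* among them, are also driven by other stress regulators such as ATF4.

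The study asked how colonic epithelial cells that lack heme oxygenase-1, the heme-degrading enzyme encoded by *Hmox1*, respond to heme. Control colonoids came from Hmox1 fl/fl mice and KO colonoids from Hmox1ΔIEC mice, in which Cre under the *Vil1* promoter, active in intestinal epithelial cells, deletes the floxed gene. Both genotypes were exposed to vehicle or to hemin, an iron-containing heme salt, at 200 µM for 24 hours, with 3 libraries in each of the 4 groups. The label of replicate 3 of the KO colonoids with hemin gives its genotype as floxed with *Vil1* Cre where the other KO labels write KO with *Vil1* Cre. The labels do not say whether the 3 libraries of a group came from separate mice or cultures, so the p-values measure the spread between these libraries, which may be technical.

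Expression was deposited as FPKM, fragments per kilobase of gene divided by a size factor for each library. This factor was not simply proportional to the summed fragments of the library. Differences are given on the log2(FPKM + 1) scale, which understates the change of low genes, with the standard error (SE) and the adjusted p-value of limma, a linear model with a spread shared across genes, corrected by Benjamini-Hochberg over the 12740 genes. A gene passed at an adjusted p-value under 0.05. *Hmox1* was at 7.62, 6.85 and 7.90 FPKM in the control vehicle libraries and at 3.14, 2.11 and 2.31 FPKM in the KO vehicle libraries, lower by a log2 difference of -1.27 ± 0.12 (SE, limma adjusted p = 1.2e-05). Under hemin it was at 503, 483 and 382 FPKM in control and at 1279, 1393 and 1271 FPKM in KO libraries, higher in the latter by 1.53 ± 0.12 (limma adjusted p = 3.3e-06). The hemin-treated KO libraries thus went against their label for this gene, and a table of whole genes does not show which exons the fragments cover, so both KO groups are called labelled KO from here on. The libraries held 11648800 to 25101900 fragments, with the control hemin group lowest at 11648800 to 11935600 fragments. Control hemin replicate 3 lay farthest from its group, at a root mean square deviation of 0.323 on the log2 scale against 0.123 to 0.238 in the other libraries. Its deviation followed the GC content of the transcript at r = -0.537 across 12730 genes, which are not independent replicates, and replicate 2 of the same group deviated the opposite way at r = 0.477. The 7 markers of epithelium were all present and summed to 4227 to 7524 FPKM, led by *Krt8*, a keratin, while *Cdx2*, the intestinal identity factor, was at a mean of 202 FPKM in control vehicle and 204 in control hemin against 48.7 in labelled KO vehicle and 82.3 FPKM in labelled KO hemin libraries. Markers of other tissues were low, with those of fibroblasts at 0.443 to 1.35 FPKM, of endothelium at 0.0272 to 0.192 FPKM and of immune cells at 0.784 to 5.17 FPKM. Within the epithelium the goblet cell markers *Muc2* and *Tff3* summed to 202 to 254 FPKM in labelled KO hemin and 638 to 1141 FPKM in the other libraries, and the enteroendocrine marker *Chga* was at 25.6 to 38.0 FPKM in labelled KO and 5.19 to 9.03 FPKM in control libraries. The part of these markers in the results on the 10 genes was not tested.

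Short matches to the p53 half-site, the 10-base consensus of which p53 binds pairs, were looked for in the RefSeq promoters (GRCm38.p6, the build also called mm10) from 250 bases before to 50 bases after each start, to show where the letters of the motif stand in these genes. The motif reads the same on both strands. Promoters were given for 9 of the 10 genes, all but *Zmat3*, and 5 of the 9 held a match, against 9.55% of 27025 genes with a promoter in the same table. *Cdkn1a* held 2 matches with 12 bases between them, and 0.36% of 32851 promoters held 2 or more. The 10 bases directly after the match nearer the start differ from the consensus only in their opening base and were not counted. The 2 matches are therefore not shown to be a bound pair. The half-site is in capitals, each sequence is written 5′ to 3′ on the strand of the gene with 10 bases on either side, and coordinates are those of the capitals.
*Cdkn1a*, chr17:29090906-29090915, plus strand, 73 bases upstream of the RefSeq start: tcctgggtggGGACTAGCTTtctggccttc
*Cdkn1a*, chr17:29090928-29090937, plus strand, 51 bases upstream of the start: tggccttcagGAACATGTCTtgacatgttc
*Mdm2*, chr10:117710935-117710944, minus strand, 186 bases upstream of the start: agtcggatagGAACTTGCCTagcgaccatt
*Ccng1*, chr11:40755462-40755471, minus strand, 185 bases upstream of the start: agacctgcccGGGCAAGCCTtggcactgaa
*Bax*, chr7:45467090-45467099, minus strand, 201 bases upstream of the start: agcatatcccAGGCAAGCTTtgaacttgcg
*Sesn1*, chr10:41887266-41887275, plus strand, 173 bases upstream of its downstream start: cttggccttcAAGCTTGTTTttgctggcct
The promoters given for *Bbc3*, *Phlda3*, *Sesn2* and *Gdf15* held no match in this window. For *Bbc3* and *Phlda3* the bases after the given starts were not found in a GENCODE transcript of the gene, so these starts are less certain. The letters TGATGNAA, the core of the composite element bound by ATF4 with a C/EBP partner, were in none of the 9 genes and in 4.51% of all genes, on either strand. A match is a description of letters and not of binding.

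Hemin did not move the 10 genes as a block. In control colonoids 5 of 10 fell (*Gdf15*, *Bbc3*, *Phlda3*, *Zmat3* and *Mdm2*), against 26.7% of all genes tested, and 0 of 10 rose, against 23.2%. At an unadjusted p under 0.05, limma also gave 0 rises, as did limma-voom on the recovered fragments at either threshold, but 3 rose after the GC correction, where 32.3% of all genes did, 2 without control hemin replicate 3 (27.1%) and 1 without control hemin replicate 2 (23.8%). In labelled KO colonoids 3 of 10 rose (*Cdkn1a*, *Ccng1* and *Mdm2*), against 29.9% of all genes, and 3 fell (*Bbc3*, *Zmat3* and *Gdf15*), against 30.4%. Between genotypes under hemin 6 of 10 were higher in labelled KO (*Gdf15*, *Phlda3*, *Cdkn1a*, *Zmat3*, *Mdm2* and *Ccng1*), against 19.7% of all genes, and 0 were lower, against 14.7%, with 0 also at an unadjusted p under 0.05 and by limma-voom. Under vehicle 2 were higher (*Phlda3* and *Zmat3*), against 17.4%, and 1 lower (*Gdf15*), against 16.8%. The interaction, the test of whether the response to hemin differed between genotypes, passed for 3 of 10 (*Gdf15*, *Cdkn1a* and *Mdm2*), each toward a more positive response in labelled KO, against 13.3% of all genes in that direction, and for 0 in the other, against 10.5%, with 0 also at an unadjusted p under 0.05 and by limma-voom. After the GC correction 1 gene was lower in labelled KO under hemin (20.3% of all genes), as without control hemin replicate 3 (18.3%) or 2 (15.2%). *Bbc3* had a negative interaction that passed after the GC correction (14.8% of all genes) and without control hemin replicate 3 (16.2%). The counts for hemin in labelled KO and for the genotypes under vehicle were close to the background. With limma-voom the rises and falls were 0 and 6 for hemin in control, against 19.6% and 30.9% of all genes, and 1 and 5 in labelled KO, against 20.8% and 41.9%. The interactions were then 1 positive, close to the 8.80% of all genes, and 0 negative, against 15.1%. Fitted on only the groups compared, 1 of the 10 fell with hemin in control. These comparisons share groups and are not independent of each other. For hemin in control, the 10 log2 fold changes had a median of -0.24 and those of all genes -0.01, and in labelled KO the medians were -0.11 and -0.00. Between genotypes it was 0.14 under vehicle and 0.34 under hemin, beside 0.02 and 0.04 for all genes. In bulk RNA, fewer cells of a type and less RNA per cell cannot be told apart.

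**Figure D1:**
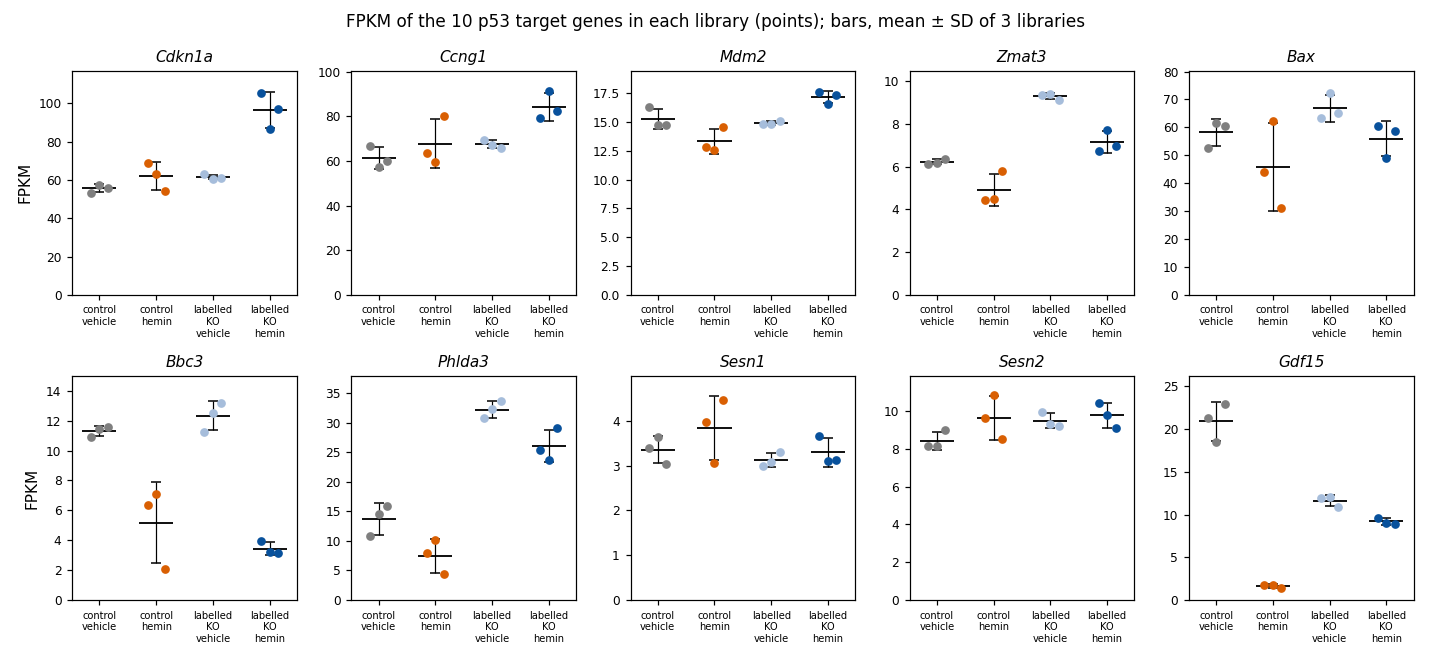
FPKM (y axis, from 0) of the 10 p53 target genes in the 12 libraries, by group (x axis); points are libraries and bars the mean ± SD of 3. *Cdkn1a* is highest in the labelled KO hemin libraries at 86.7 to 105 FPKM, *Gdf15* is lowest in the control hemin libraries at 1.39 to 1.78 FPKM, and *Phlda3* is higher in both labelled KO groups than in both control groups.

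The scaling between libraries mattered for these statements. Of all genes passing for hemin against vehicle in labelled KO, 49.6% rose in the deposited FPKM, 33.2% with limma-voom, 20.2% after rescaling every library to the same FPKM sum (TPM) and 32.1% in TPM with the small RNA *Gm23935* left out. In control the share that rose was 46.4%, 38.9%, 21.3% and 35.2% under the same settings. For the interaction 55.9% were positive in the deposited FPKM, 36.8% with limma-voom, 34.3% in TPM and 38.8% in TPM without *Gm23935*. Between genotypes under hemin the higher share was 57.2%, 46.2%, 54.6% and 49.1%, and under vehicle it was 50.9%, 61.1%, 64.9% and 59.8%. *Gm23935* alone made up 29.0% of the FPKM sum of control hemin replicate 1, and 1.74% at the lowest in that group. The median of all genes for hemin was shifted to -0.19 in control and -0.31 in labelled KO in TPM, and to -0.22 in labelled KO with limma-voom. Both TPM settings and limma-voom divide each library by its summed FPKM or fragments, which replaces the size factor used in the FPKM. Median-of-ratios scaling, which instead evens the median ratio of each library to the genes' means, left the shares almost as deposited. They were 49.6% for hemin in labelled KO, 46.4% in control, 55.9% for the interaction, 57.2% between genotypes under hemin and 50.9% under vehicle. The 10 genes kept 3 rises and 3 falls with hemin in labelled KO. By this measure the libraries were thus nearly even before it was applied. How much of the shift in TPM and limma-voom came from replacing the size factor was not tested. Small log2 changes are therefore relative to the scaling.

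*Cdkn1a* (ENSMUSG00000023067, chr17:29090976-29100727, plus strand, mm10) encodes p21, the inhibitor of cyclin-dependent kinases through which p53 arrests the cell cycle. It stood at 53.4, 57.6 and 56.0 FPKM in control vehicle, 68.7, 63.2 and 54.0 in control hemin, 63.0, 60.7 and 61.0 in labelled KO vehicle and 105, 86.7 and 97.3 in labelled KO hemin libraries. The labelled KO hemin libraries were all above every other library, while control hemin overlapped control vehicle. Hemin raised *Cdkn1a* in labelled KO by 0.63 ± 0.09 (SE, limma adjusted p = 0.00013), a ratio of mean FPKM of 1.57, and among the settings run this missed the threshold only in TPM (0.30, adjusted p = 0.20). In control the difference was 0.15 ± 0.09 (limma adjusted p = 0.21, 95% interval -0.06 to 0.35), and -0.044 in TPM. Under vehicle labelled KO differed from control by 0.14 ± 0.09 (limma adjusted p = 0.27), which passed only when fitted on the groups compared (adjusted p = 0.030). The 2 responses to hemin differed by 0.49 ± 0.13 (limma adjusted p = 0.020). That difference kept its sign in every setting but missed the threshold with limma-voom (0.35, adjusted p = 0.060), in TPM (0.34, adjusted p = 0.54), in TPM without *Gm23935* (0.37, adjusted p = 0.061) and without control vehicle replicate 2 or labelled KO hemin replicate 1. Under hemin *Cdkn1a* was higher in labelled KO than in control by 0.63 ± 0.09 (limma adjusted p = 0.00030), and this passed in every setting run. Without control hemin replicate 3 the rise in control also passed (0.24, limma adjusted p = 0.020), as it did after a correction for transcript GC content (0.26, limma adjusted p = 0.0033).

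*Ccng1* (ENSMUSG00000020326, chr11:40748552-40755311, minus strand), for cyclin G1, a partner of protein phosphatase 2A in the regulation of MDM2, was on average the highest expressed of the 10 per length, at 57.2 to 91.2 FPKM. Its values in control were 66.5, 57.2 and 60.0 FPKM with vehicle and 63.6, 59.6 and 80.2 FPKM with hemin. In labelled KO they were 69.5, 67.0 and 65.9 FPKM with vehicle and 79.4, 91.2 and 82.2 FPKM with hemin. Only in labelled KO did the hemin libraries clear the vehicle libraries, by 0.31 ± 0.10 (limma adjusted p = 0.023), against 0.14 ± 0.10 in control (limma adjusted p = 0.31), which was -0.055 in TPM, and the difference between these responses did not pass (0.18 ± 0.15, limma adjusted p = 0.44). The rise in labelled KO was -0.02 in TPM, 0.11 with limma-voom and 0.092 in TPM without *Gm23935*, none of which passed, and it missed the threshold without labelled KO vehicle replicate 2 or 3 or without labelled KO hemin replicate 2 (adjusted p = 0.058, 0.067 and 0.085). Under hemin *Ccng1* was higher in labelled KO than in control by 0.32 ± 0.10 (limma adjusted p = 0.036), with overlapping groups, and this passed in only 7 of 17 settings. It missed the threshold without control hemin replicate 1 or 2 or labelled KO hemin replicate 2 or 3 (adjusted p = 0.074 to 0.12), with the replicate number as a block (0.064), with limma-voom (0.063), in TPM (0.29), in TPM without *Gm23935* (0.073), without the filter (0.075) and on only the groups compared (0.14). After the GC correction the differences for hemin in control (0.13, limma adjusted p = 0.030) and between genotypes under vehicle (0.20, limma adjusted p = 0.0040) passed. Without control hemin replicate 3 the interaction passed (0.30, limma adjusted p = 0.039).

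*Mdm2* (ENSMUSG00000020184, chr10:117688875-117710758, minus strand), the p53 ubiquitin ligase, moved within a narrow range. It was at 16.3, 14.7 and 14.8 FPKM in control vehicle, 12.8, 12.5 and 14.6 in control hemin, 14.8, 14.8 and 15.1 in labelled KO vehicle and 17.6, 16.5 and 17.4 in labelled KO hemin libraries. With hemin the control libraries fell just below their vehicle group and the labelled KO libraries stood above theirs. The log2 differences were -0.18 ± 0.07 (limma adjusted p = 0.037) in control and 0.19 ± 0.07 (limma adjusted p = 0.025) in labelled KO, and they differed by 0.38 ± 0.09 (limma adjusted p = 0.013). The rise in labelled KO turned to -0.01 with limma-voom, -0.02 in TPM without *Gm23935* and -0.13 in TPM, so its direction rests on the scaling. The interaction stayed positive in those settings at 0.26, 0.28 and 0.25 and missed the threshold in each. Both calls within a genotype were lost when any of 5 of the 6 libraries compared was left out, at adjusted p-values of 0.050 to 0.13 in control and 0.055 to 0.079 in labelled KO. The fall in control also missed it in TPM (adjusted p = 0.12), with the replicate number as a block (0.051) and on only the groups compared (0.15). Under hemin *Mdm2* was higher in labelled KO by 0.35 ± 0.07 (limma adjusted p = 0.0018), which missed the threshold only in TPM (0.36, adjusted p = 0.21).

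*Zmat3* (ENSMUSG00000027663, chr3:32334792-32366014, minus strand) encodes a zinc finger protein that binds RNA and regulates splicing downstream of p53. It was at 6.12, 6.19 and 6.35 FPKM in control vehicle, 4.45, 4.50 and 5.78 in control hemin, 9.36, 9.40 and 9.13 in labelled KO vehicle and 6.75, 7.71 and 6.97 in labelled KO hemin libraries. Each hemin group lay below its vehicle group and each labelled KO group above the matching control group, with no overlap. Hemin lowered it in both, with log2 differences of -0.30 ± 0.08 and -0.34 ± 0.08 (limma adjusted p = 0.013 and 0.0048). It was higher in labelled KO by 0.51 ± 0.08 under vehicle and 0.47 ± 0.08 under hemin (limma adjusted p = 0.00069 and 0.0013). The interaction was -0.04 ± 0.12 (limma adjusted p = 0.84), with a 95% interval of -0.31 to 0.22. The higher level under hemin missed the threshold in TPM (0.52, adjusted p = 0.075). Without control hemin replicate 1 the fall in control missed the threshold (-0.24, adjusted p = 0.050), as it did fitted on only the groups compared (adjusted p = 0.079).

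**Figure D2:**
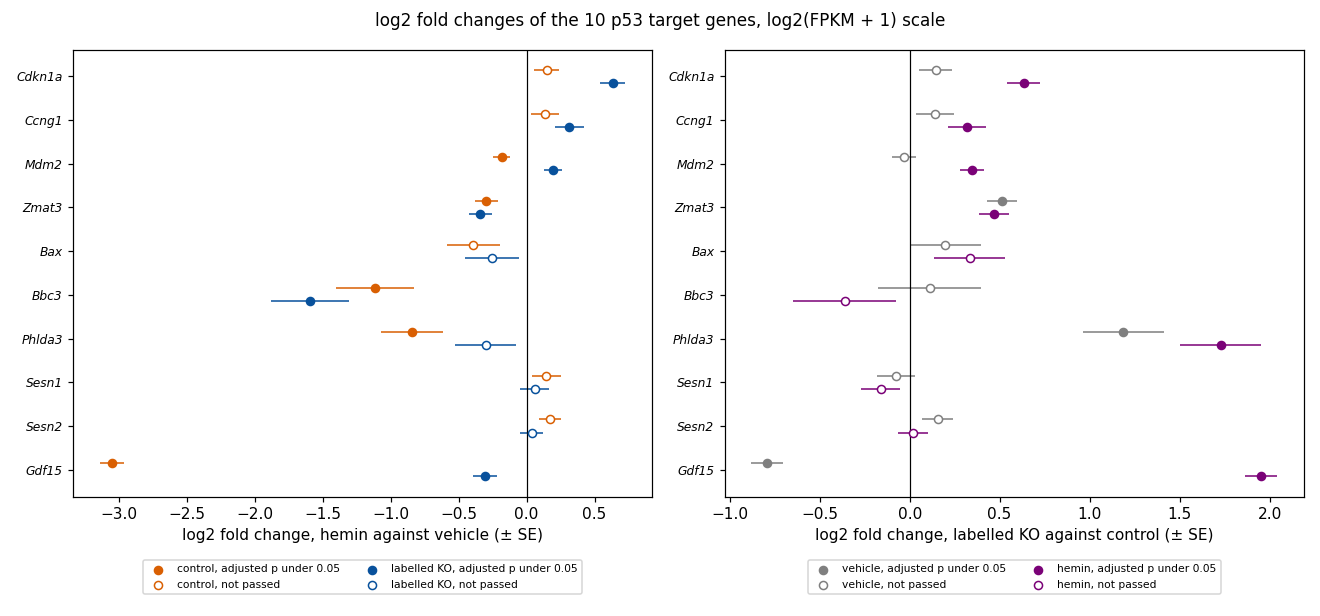
log2 fold changes ± SE (x axis) of the 10 genes (y axis) on the log2(FPKM + 1) scale, for hemin against vehicle in each genotype (left) and labelled KO against control under each treatment (right); filled points passed an adjusted p-value under 0.05. *Gdf15* lies at -3.05 in control and -0.31 in labelled KO on the left, and at -0.79 under vehicle and 1.95 under hemin on the right.

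*Bax* and *Bbc3* encode proteins of the BCL2 family that carry out apoptosis. *Bax* (ENSMUSG00000003873, chr7:45461697-45466898, minus strand), which permeabilises the outer mitochondrial membrane, was at 52.6, 61.6 and 60.4 FPKM in control vehicle and at 44.1, 62.2 and 30.96 in control hemin libraries. In labelled KO it was at 63.2, 72.2 and 65.1 FPKM with vehicle and 60.5, 48.9 and 58.6 FPKM with hemin. The control hemin libraries spread over the widest range of any group, and no comparison of *Bax* passed. The log2 difference for hemin was -0.39 ± 0.20 in control (limma adjusted p = 0.12, 95% interval -0.83 to 0.04) and -0.26 ± 0.20 in labelled KO (limma adjusted p = 0.28, interval -0.69 to 0.18), and with limma-voom both passed at -0.47 and -0.48 (adjusted p = 0.047 and 0.027), as did the value in labelled KO fitted on only the groups compared (adjusted p = 0.043). Without control hemin replicate 2 the value in control was -0.64 (limma adjusted p = 0.0050), and labelled KO was higher than control under hemin by 0.58 (limma adjusted p = 0.012).

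*Bbc3* (ENSMUSG00000002083, chr7:16308393-16318205, plus strand) encodes PUMA, the BH3-only protein that is a main p53 effector of apoptosis in the gut. It was at 10.9, 11.4 and 11.6 FPKM in control vehicle, 6.36, 7.13 and 2.06 in control hemin, 11.3, 12.5 and 13.2 in labelled KO vehicle and 3.92, 3.24 and 3.12 in labelled KO hemin libraries. All 6 hemin libraries were below all 6 vehicle libraries. *Bbc3* fell with hemin by 1.12 ± 0.29 in control (limma adjusted p = 0.0075) and by 1.59 ± 0.29 in labelled KO (limma adjusted p = 0.00061), which are ratios of mean FPKM of 0.458 and 0.278. Fitted on only the groups compared, the fall in control missed the threshold (adjusted p = 0.054). The genotypes did not differ by the test under vehicle (0.11 ± 0.29, limma adjusted p = 0.81) or under hemin (-0.36 ± 0.29, limma adjusted p = 0.37), and the interaction was -0.47 ± 0.40 (limma adjusted p = 0.45). Control hemin replicate 3, the lowest of all libraries at 51 fragments, decided the latter pair. Without it labelled KO was lower under hemin by 0.81, as a log2 difference of -0.81 (limma adjusted p = 5.6e-05), and the interaction was -0.92 (limma adjusted p = 0.00028). *Bbc3* has the highest transcript GC content of the 10 genes, 65.2%, where the median of all genes is 49.7%, and after the GC correction these values were -0.45 (limma adjusted p = 0.019) and -0.55 (limma adjusted p = 0.049).

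*Phlda3* (ENSMUSG00000041801, chr1:135766119-135769136, plus strand) encodes a pleckstrin homology protein that competes with AKT for membrane lipids and so restrains AKT signalling. It was at 10.8, 14.5 and 16.0 FPKM in control vehicle, 7.93, 10.1 and 4.39 in control hemin, 30.8, 32.3 and 33.6 in labelled KO vehicle and 25.3, 23.7 and 29.0 in labelled KO hemin libraries. Every labelled KO library was above every control library, whichever the treatment. The labelled KO groups were higher by 1.19 ± 0.22 under vehicle and 1.73 ± 0.22 under hemin (limma adjusted p = 0.0018 and 0.00013), ratios of mean FPKM of 2.34 and 3.47. With hemin it fell in control by 0.84 ± 0.22 (limma adjusted p = 0.0093), while the difference of -0.30 ± 0.22 in labelled KO did not pass (limma adjusted p = 0.27), and the 2 responses did not differ by the test (0.54 ± 0.32, limma adjusted p = 0.26), although this interaction passed after the GC correction (0.50, adjusted p = 0.028). With limma-voom the fall in labelled KO also passed (-0.53, adjusted p = 0.0098), as it did fitted on only the groups compared (adjusted p = 0.012), where the fall in control did not (adjusted p = 0.061). Control hemin replicate 3 was again the lowest library, 0.89 below the mean of the other 2 on the log2 scale.

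The 3 genes that this library held lowest relative to the rest of its group, *Bbc3*, *Phlda3* and *Bax* at -1.34, -0.89 and -0.74, are also the 3 with the highest transcript GC content among the 10, at 65.2%, 62.6% and 63.5%. *Gdf15*, at 61.3%, was -0.21 below. *Ccng1*, with the lowest GC content at 40.8%, was 0.38 above, followed by *Zmat3* at 0.31 and *Sesn1* at 0.29, with 47.6% and 49.8%. Not every gene kept this order: *Mdm2*, at 46.2%, was at 0.18. *Cdkn1a* at 54.4% and *Sesn2* at 58.7% were at -0.28 and -0.24, lower than *Gdf15*.

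The sestrins, stress proteins that restrain mTORC1 and support the reduction of peroxides, showed no passing difference in any of the 5 comparisons. *Sesn1* (ENSMUSG00000038332, chr10:41809935-41908424, plus strand) was the lowest expressed of the 10 on average, at 2.98 to 4.47 FPKM over the 12 libraries. *Sesn2* (ENSMUSG00000028893, chr4:132492032-132510501, minus strand) was at 8.15, 8.15 and 8.98 FPKM in control vehicle, 9.64, 10.8 and 8.50 in control hemin, 9.93, 9.31 and 9.23 in labelled KO vehicle and 10.4, 9.77 and 9.13 in labelled KO hemin libraries. For *Sesn2* the log2 difference with hemin was 0.17 ± 0.08 in control (limma adjusted p = 0.11, 95% interval -0.01 to 0.36) and 0.04 ± 0.08 in labelled KO (limma adjusted p = 0.72, interval -0.15 to 0.22). For *Sesn1* these values were 0.14 ± 0.11 (limma adjusted p = 0.30, interval -0.09 to 0.38) and 0.06 ± 0.11 (limma adjusted p = 0.66, interval -0.18 to 0.30). The sign of these values rests on the scaling, since in TPM *Sesn1* was at -0.0094 and *Sesn2* at -0.0013 in control, and in labelled KO *Sesn1* was at -0.24 and *Sesn2* at -0.29 in TPM, with both also below 0 with limma-voom and in TPM without *Gm23935*. A rise in control passed for *Sesn2* without control hemin replicate 3 (0.25, limma adjusted p = 0.013) and after the GC correction (0.34, limma adjusted p = 0.0038), and for *Sesn1* without control hemin replicate 2 (0.26, limma adjusted p = 0.033). Without the latter library *Sesn1* was also lower in labelled KO than in control under hemin (-0.28, limma adjusted p = 0.034).

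*Gdf15* (ENSMUSG00000038508, chr8:70629393-70632456, minus strand), the secreted TGF-β family member that signals through GFRAL in the brainstem, had the largest response to hemin in control among the 10 genes. It was at 21.3, 18.5 and 23.0 FPKM in control vehicle, 1.75, 1.78 and 1.39 in control hemin, 11.99, 12.03 and 10.9 in labelled KO vehicle and 9.64, 9.06 and 8.92 in labelled KO hemin libraries. The 4 groups were fully separated, in the order control vehicle, labelled KO vehicle, labelled KO hemin and control hemin, and each neighbouring pair in that order differed by the test. In control hemin took *Gdf15* down by 12.8-fold in mean FPKM, a log2 difference of -3.05 ± 0.09 (limma adjusted p = 1.9e-09). In labelled KO the difference was -0.31 ± 0.09 (limma adjusted p = 0.011), a ratio of 0.792, and the responses differed by 2.75 ± 0.13 (limma adjusted p = 2.5e-07). *Gdf15* was lower in labelled KO under vehicle (-0.79 ± 0.09, limma adjusted p = 4.0e-05) and 5.62-fold higher under hemin (1.95 ± 0.09, limma adjusted p = 3.0e-08). The fall in labelled KO missed the threshold after the GC correction (-0.15, limma adjusted p = 0.27), and the other *Gdf15* calls held in every setting. The lowest library held 30 *Gdf15* fragments.

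The wider p53 program was followed in a list of 36 other targets, of which 31 passed the filter, *Ak1*, *Cpt1c*, *Dram1*, *Gls2* and *Pltp* being too low. With hemin 6 rose and 11 fell in control, and 12 rose and 11 fell in labelled KO, at median log2 fold changes of -0.06 and 0.23. Over all genes 23.2% rose and 26.7% fell in control, and 29.9% and 30.4% in labelled KO, so that the counts of the list were near the background. In TPM the same list gave 1 rise and 11 falls in control and 5 rises and 13 falls in labelled KO, where all genes gave 6.7% and 24.7% in control and 9.35% and 37% in labelled KO. The medians in TPM were -0.25 and -0.09, so the sign of the median in labelled KO rests on the scaling. Labelled KO was higher for 14 and lower for 4 of the 31 under hemin, and higher for 10 and lower for 5 under vehicle, where over all genes 19.7% were higher and 14.7% lower under hemin, and 17.4% and 16.8% under vehicle. Without control hemin replicate 3 the counts under hemin were 17 and 6, against 24.7% and 18.3%.

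*Gadd45a*, for a growth arrest and DNA damage protein, rose in both genotypes, from 6.63, 7.33 and 7.59 FPKM to 13.3, 15.6 and 14.99 FPKM in control (0.93 ± 0.12, limma adjusted p = 7.6e-05) and from 11.7, 10.2 and 11.8 FPKM to 25.2, 17.4 and 22.1 FPKM in labelled KO (0.87 ± 0.12, limma adjusted p = 8.2e-05). *Triap1*, an inhibitor of apoptosome assembly, rose by 0.53 and *Rrm2b*, the p53-inducible ribonucleotide reductase subunit, by 0.46 in control, although *Rrm2b* missed the threshold when any of 4 of the 6 libraries was left out. In labelled KO, with 1 library left out, hemin gave differences of 0.35 to 0.43 for *Triap1* and 0.60 to 0.70 for *Rrm2b*. The largest falls were shared as values: *Sulf2*, an extracellular sulfatase, fell by 1.66 in control and 1.85 in labelled KO, *Psrc1*, a spindle protein, by 1.56 and 1.42, and *Pidd1*, the scaffold of the PIDDosome, by 0.97 and 0.87.

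The 3 largest rises in labelled KO differed from the responses in control. *Plk3*, a polo-like stress kinase, went from 6.24, 6.58 and 7.30 FPKM to 28.7, 22.4 and 27.0 FPKM in labelled KO (1.80 ± 0.14, limma adjusted p = 8.3e-07) and from 4.79, 5.22 and 5.09 FPKM to 6.86, 7.28 and 4.70 FPKM in control (0.25 ± 0.14, limma adjusted p = 0.15). *Trp53inp1*, a nuclear stress protein that promotes p53 phosphorylation and autophagy, went from 16.2, 16.5 and 16.9 FPKM to 49.0, 49.7 and 47.3 FPKM in labelled KO (1.502 ± 0.12) and differed by 0.27 ± 0.12 in control (limma adjusted p = 0.084). In control *Plk3* passed without hemin replicate 3 (0.42, limma adjusted p = 0.0043) and *Trp53inp1* without hemin replicate 2 (0.38, limma adjusted p = 0.024). *Epha2*, an ephrin receptor, rose by 1.11 ± 0.11 in labelled KO and fell by 0.39 ± 0.11 in control. The responses of these 3 genes differed between genotypes by 1.55 ± 0.19, 1.23 ± 0.17 and 1.5005 ± 0.15 (limma adjusted p = 0.00019, 0.00044 and 5.0e-05), and the interaction passed in all 6 scalings compared. *Perp*, a desmosomal protein with a part in p53-dependent death that was also singled out after its values were seen, rose in both genotypes, by 0.33 ± 0.07 in control and 0.92 ± 0.07 in labelled KO, with an interaction of 0.59 ± 0.10 (limma adjusted p = 0.0018). *Pmaip1*, which encodes the BH3-only protein NOXA and was singled out after its values were seen, fell in control from 14.7, 12.5 and 13.3 FPKM to 7.16, 6.46 and 6.05 FPKM and stood at 30.4, 25.2 and 28.3 FPKM in labelled KO with hemin against 16.7, 17.5 and 17.0 FPKM with vehicle. Its log2 differences were -0.94 ± 0.08 and 0.68 ± 0.08 (limma adjusted p = 5.5e-06 and 4.0e-05), where *Bbc3*, another BH3-only target, fell in both.

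**Figure D3:**
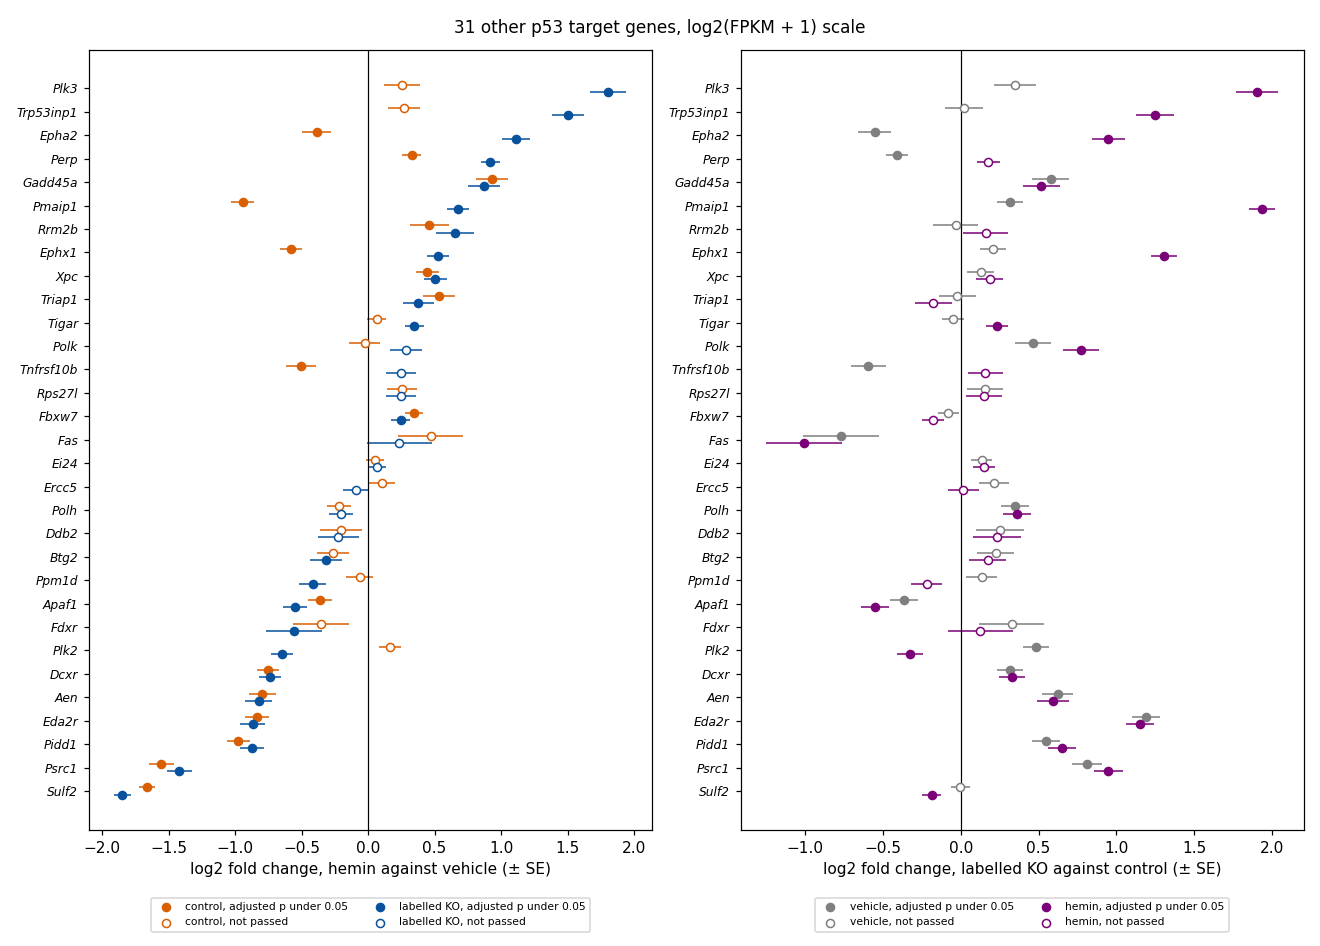
log2 fold changes ± SE (x axis) of the 31 other p53 targets (y axis, ordered by the hemin response in labelled KO), for hemin against vehicle (left) and labelled KO against control (right); filled points passed an adjusted p-value under 0.05. *Plk3*, *Trp53inp1* and *Epha2* lie at 1.80, 1.502 and 1.11 in labelled KO and at 0.25, 0.27 and -0.39 in control, and *Sulf2* and *Psrc1* lie far to the left in both.

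*Trp53* itself, the gene for p53, fell with hemin. It was at 28.6, 30.2 and 30.6 FPKM in control vehicle, 15.9, 17.9 and 16.5 in control hemin, 39.2, 39.8 and 40.2 in labelled KO vehicle and 15.8, 15.6 and 15.1 in labelled KO hemin libraries. The hemin groups were below the vehicle groups without overlap, and the labelled KO vehicle libraries were highest. The log2 differences were -0.79 ± 0.06 in control and -1.30 ± 0.06 in labelled KO (limma adjusted p = 9.6e-07 and 1.3e-08), and the interaction was -0.51 ± 0.08 (limma adjusted p = 0.00090), which missed the threshold in TPM (adjusted p = 0.17). Since p53 is controlled mainly through its protein, these values do not measure its activity. *Mdm4*, its second inhibitor of the MDM2 family, fell by 0.25 ± 0.08 in control and 0.50 ± 0.08 in labelled KO (limma adjusted p = 0.021 and 0.00020), and the fall in control missed the threshold when any of 4 of the 6 libraries was left out. The relatives *Trp63* and *Trp73* were below the filter, at no more than 0.0138 and 0.258 FPKM. Of the 7 p53 family members and regulators tested, where 26.7% of all genes fell in control and 30.4% in labelled KO, 4 fell and 0 rose in control (7 fell without control hemin replicate 3, against 29.5%), and 6 fell and 0 rose in labelled KO, with 0 rises also at an unadjusted p under 0.05 and by limma-voom.

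Cell cycle genes listed as repressed downstream of p21 and the DREAM complex fell in both genotypes, and the cause was not tested. The counts were 16 of 16 in control and 15 of 16 in labelled KO, against 26.7% and 30.4% of all genes. Their median log2 fold changes were -1.51 and -1.30, beside -0.01 and -0.00 for all genes. *Cdkn1a* rose in labelled KO, while in control its rise passed only without hemin replicate 3 or after the GC correction. *Ccnb1*, cyclin B1, fell by 1.47 ± 0.09 in control and by 1.30 ± 0.09 in labelled KO. *Cdk1*, its kinase partner, fell by 1.21 ± 0.07 and 0.89 ± 0.07. Under vehicle 10 of the 16 were already higher in labelled KO than in control, against 17.4% of all genes, with a median of 0.32, and in TPM the count was 5, against 11.6%. With 1 library left out the count under vehicle was 7 to 9, where 13.7% to 14.9% of all genes were higher. Under hemin 12 of the 16 were higher, against 19.7%, and 0 lower, with 0 also at an unadjusted p under 0.05 and by limma-voom, although in TPM the count was 6, against 9.03%. The interaction was positive for 4 of the 16, against 13.3% of all genes, and negative for 1, *Ccnb2*, another mitotic cyclin, at -0.39, against 10.5%. The positive count ran from 1 to 6 when 1 library was left out, with 6 without control hemin replicate 3, where 20.8% of all genes passed, and in TPM none of the 16 passed in either direction, where 2.45% and 4.69% of all genes did. Proliferation was not measured. Of the stem cell markers, mean *Lgr5* was 2.45, 0.781, 2.36 and 0.277 FPKM and mean *Ascl2* 0.894, 0.213, 4.96 and 1.64 FPKM in control vehicle, control hemin, labelled KO vehicle and labelled KO hemin. Their part in the result was not tested.

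Of 6 other inhibitors of cyclin-dependent kinases tested, 1 rose and 3 fell with hemin in each genotype, where 23.2% of all genes rose and 26.7% fell in control, and 29.9% and 30.4% in labelled KO. *Cdkn2b*, p15, stood at 84.9, 97.7 and 100 FPKM in control vehicle, 107, 111 and 96.3 in control hemin, 39.4, 35.9 and 38.4 in labelled KO vehicle and 60.7, 51.9 and 57.5 FPKM in labelled KO hemin libraries, and rose in labelled KO by 0.57 ± 0.09 (limma adjusted p = 0.00018). In control it differed by 0.15 ± 0.09 (limma adjusted p = 0.17, -0.039 to 0.28 over the scalings), and the interaction was 0.42 ± 0.12 (limma adjusted p = 0.030), as *Cdkn1a* also rose in labelled KO with a positive interaction. The *Cdkn2b* interaction missed the threshold when any of 6 of the 12 libraries was left out and passed in 3 of the 6 scalings, at 0.28 to 0.42. *Cdkn1c*, p57, rose in control by 0.42 ± 0.09 (limma adjusted p = 0.0024) and differed by -0.19 ± 0.09 in labelled KO (limma adjusted p = 0.093). The value in labelled KO ranged from -0.53 to -0.038 and passed in 3 of the 6 scalings, and without labelled KO hemin replicate 3 it was -0.31 and passed (limma adjusted p = 0.0026). In TPM 0 of the 6 inhibitors rose in either genotype, against 6.7% of all genes in control and 9.35% in labelled KO. The rises of *Cdkn2b* in labelled KO and *Cdkn1c* in control thus missed the threshold in TPM. *Cdkn1b*, p27, fell by 0.38 and 0.61, *Cdkn2a*, the p16 and ARF gene, by 0.57 and 0.98, and *Cdkn2c*, p18, by 0.98 and 0.63, in control and labelled KO in that order. The fall of *Cdkn2c* in labelled KO missed the threshold when any of 3 of the 6 libraries was left out (adjusted p = 0.052 to 0.064). *Cdkn2d*, p19, did not pass in either, at -0.33 and -0.16.

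Because *Gdf15* and *Sesn2* are also targets of ATF4, the transcription factor of the integrated stress response, that pathway was set beside them. Of its 10 genes 2 rose and 5 fell with hemin in control, and 6 rose and 2 fell in labelled KO, at median log2 fold changes of -0.24 and 0.64, where 23.2% of all genes rose and 26.7% fell in control, and 29.9% and 30.4% in labelled KO. *Trib3*, a pseudokinase induced by ATF4 and CHOP, was at 14.9, 14.7 and 18.2 FPKM in control vehicle, 7.10, 5.13 and 5.32 in control hemin, 0.489, 0.408 and 0.531 in labelled KO vehicle and 5.39, 3.56 and 5.25 FPKM in labelled KO hemin libraries. It fell in control by 1.31 ± 0.15 and rose in labelled KO by 1.94 ± 0.15 (limma adjusted p = 2.9e-05 and 8.6e-07). *Chac1*, which degrades glutathione, rose in both, by 1.14 ± 0.19 and 3.45 ± 0.19, and *Ddit3*, which encodes CHOP, by 0.51 ± 0.09 and 1.16 ± 0.09. In TPM only 1 of the 10 pathway genes rose in control, against 6.7% of all genes, so *Chac1* and *Ddit3* did not both pass there. *Atf4* differed by -0.03 ± 0.17 in control and rose by 0.56 ± 0.17 in labelled KO (limma adjusted p = 0.014), although over the 6 scalings the latter ranged from 0.22 to 0.68 and passed in 3. Without control hemin replicate 3 the value in control turned to 0.23 and passed (limma adjusted p = 0.0098). The interaction of *Atf4* was 0.59 (limma adjusted p = 0.10) and passed without control hemin replicate 3 (0.33, limma adjusted p = 0.011) or replicate 1 (0.74, limma adjusted p = 0.038). The genes that fell in labelled KO, chosen after their values were seen, were *Psat1*, a serine synthesis enzyme, by 0.90, and *Asns*, asparagine synthetase, by 0.31, the latter missing the threshold when any of the 6 libraries was left out. Of the 10 pathway genes 8 were lower in labelled KO under vehicle, against 16.8% of all genes, and 0 higher, with 0 also at an unadjusted p under 0.05 and by limma-voom, and the interaction was positive for 6, against 13.3%, where TPM gave counts of 5 and 3, against 6.26% and 2.45%. With any 1 library left out, 7 pathway genes were lower under vehicle, where 13.5% to 14.7% of all genes were. *Atf4* missed the threshold there when any of the 6 libraries was left out. *Gdf15* and *Trib3* both had a lower level in labelled KO under vehicle, a fall with hemin in control and a positive interaction, while in labelled KO with hemin *Trib3* rose and *Gdf15* fell.

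**Figure D4:**
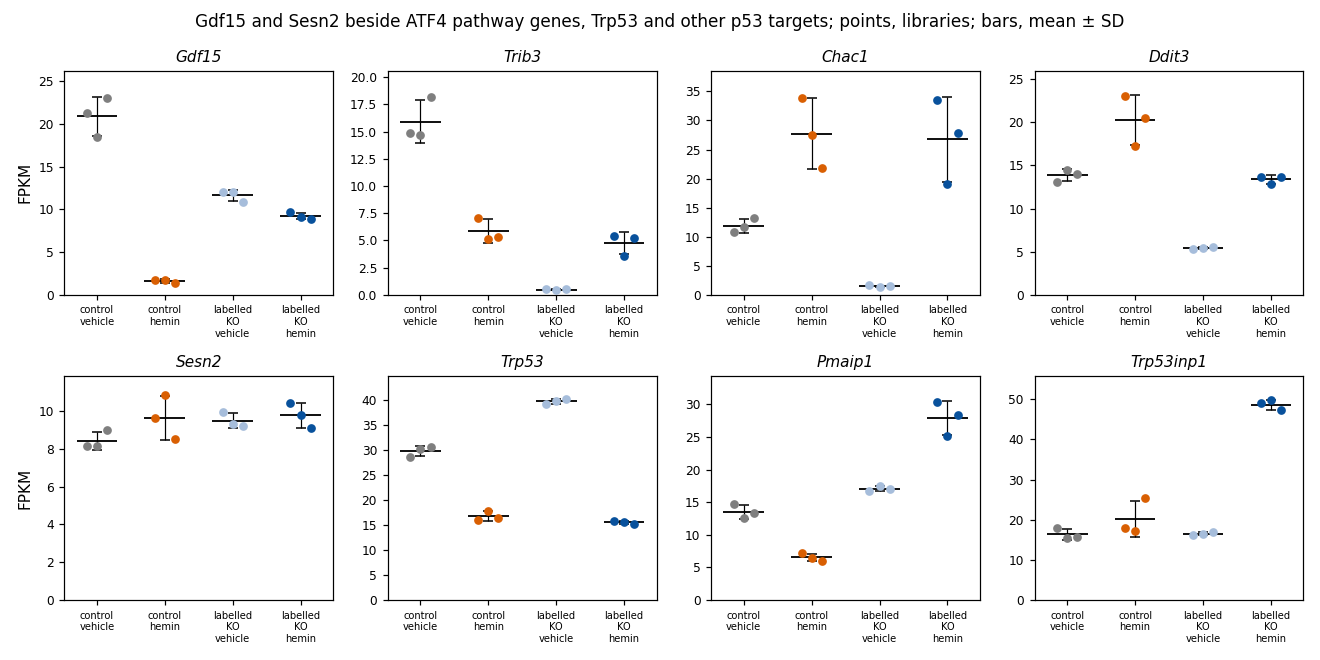
FPKM (y axis, from 0) of *Gdf15*, *Sesn2*, the ATF4 pathway genes *Trib3*, *Chac1* and *Ddit3*, *Trp53* and the p53 targets *Pmaip1* and *Trp53inp1* by group (x axis); points are libraries and bars the mean ± SD of 3. In the labelled KO vehicle libraries *Trib3* is at 0.408 to 0.531 FPKM and *Trp53* at 39.2 to 40.2 FPKM, the lowest and the highest of the 4 groups for these genes.

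Among 9 other BCL2 family genes 3 rose and 1 fell with hemin in control, and 3 rose and 3 fell in labelled KO, where all genes gave 23.2% and 26.7% in control and 29.9% and 30.4% in labelled KO. The interaction passed for 1 positive and 3 negative genes, against 13.3% and 10.5% of all genes, of which *Bcl2*, the anti-apoptotic founder of the family, was the most different: it was at 1.43, 1.11 and 1.18 FPKM in control vehicle, 0.555, 0.563 and 0.944 in control hemin, 2.99, 3.10 and 2.89 in labelled KO vehicle and 0.432, 0.659 and 0.548 FPKM in labelled KO hemin libraries. Its responses were -0.42 ± 0.11 and -1.37 ± 0.11, differing by -0.96 ± 0.15 (limma adjusted p = 0.0010). *Bcl2l1*, which encodes BCL-XL, had an interaction of 0.80 ± 0.23 (limma adjusted p = 0.029) and *Bik*, a BH3-only gene, of -0.72 ± 0.22 (limma adjusted p = 0.035), and these missed the threshold when any of 7 and 8 of the 12 libraries was left out. In TPM 0 of the 9 rose and 1 fell in control (6.7% and 24.7% of all genes), and 1 rose and 3 fell in labelled KO (9.35% and 37%). The interaction in TPM was positive for 0 and negative for 1 (2.45% and 4.69%). With limma-voom 2 rose and 2 fell in control (19.6% and 30.9%), and 1 rose and 4 fell in labelled KO (20.8% and 41.9%).

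The tested genes whose pattern was most like that of *Cdkn1a* over the 12 libraries were *Bcar3*, an adaptor of integrin signalling, *Lima1*, an actin-binding protein, and *Rab11fip1*, an effector of recycling endosomes. Likeness was measured as the root mean square difference of centred log2(FPKM + 1), which was 0.060, 0.066 and 0.089, where *Cdkn1a* itself varied by 0.316 about its mean. *Lima1* stood at 80.2, 73.2 and 80.1 FPKM in the labelled KO hemin libraries and at 42.6 to 54.2 FPKM in the others. The genes most like *Gdf15* were *Msln*, mesothelin, *Ctgf*, a matricellular protein, and *Syt8*, a synaptotagmin, at 0.320, 0.365 and 0.427 where *Gdf15* varied by 1.13. *Ctgf* was at 25.8, 26.1 and 27.8 FPKM in control vehicle, 4.81, 5.23 and 5.59 in control hemin, 17.4, 17.5 and 17.5 in labelled KO vehicle and 19.5, 19.4 and 17.6 FPKM in labelled KO hemin libraries. Within the 10 genes the closest pair was *Ccng1* and *Mdm2* at 0.150, and *Gdf15* was far from each of the others, at 0.924 or more.

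**Figure D5:**
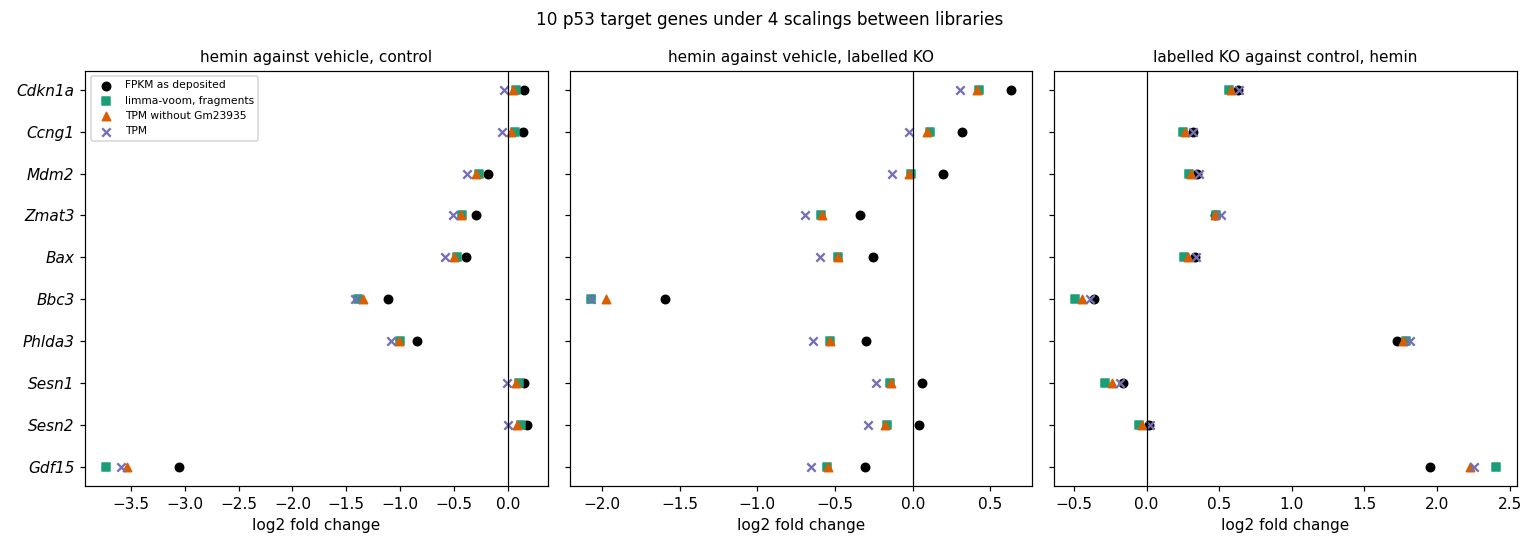
log2 fold changes (x axis) of the 10 genes (y axis) under 4 scalings between libraries, for hemin against vehicle in control and in labelled KO and for labelled KO against control under hemin. FPKM and both TPM settings are on the log2(value + 1) scale and limma-voom on log2 of counts scaled to depth (log2 CPM). *Mdm2* in labelled KO moves from 0.19 to -0.13 and *Ccng1* from 0.31 to -0.02, while between genotypes under hemin *Phlda3* lies at 1.73 to 1.82 and *Gdf15* at 1.95 to 2.40.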

How the data were processed

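Poly-A RNA of 12 colonoid libraries was sequenced by Novogene. The submitters' processing notes name fastp, HISAT2 2.0.5, featureCounts 1.5.0-p3 and mm10, and whether counting used strand is not given in the sources used here. *Cdkn1a*, *Bax*, *Sesn1* and *Sesn2* overlap other annotated genes, which held at most 38 fragments in a library. The authors deposited FPKM for 54532 genes with their lengths, and no comparison columns. 100% of the values were whole fragments within 0.01, so fragments were recovered for depth and for limma-voom, and each library's depth limits the precision of low genes.

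Genes with FPKM of at least 1 in at least 3 libraries were kept. limma 3.58.1 in R 4.3.3 modelled log2(FPKM + 1) by group across all 12 libraries, leaving 8 residual degrees of freedom, with an intensity trend, two-sided tests and Benjamini-Hochberg adjustment. The 5 comparisons were hemin against vehicle in each genotype, labelled KO against control under each treatment, and the interaction. The functions were tested on simulated data. GC content was available for 99.9% of the tested genes. Replicates within a group differed by more than sampling noise, and same-numbered libraries did not deviate together (mean r = -0.04, from -0.33 to 0.18).

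The 10 genes and all lists were chosen with earlier results of these data known. Besides the 10 genes and *Hmox1*, genes were named by rule: in each hemin comparison the 3 largest rises and 3 largest falls among passing other p53 targets; *Trp53*, *Trp63*, *Trp73* and *Mdm4*; all listed inhibitors of cyclin-dependent kinases; *Atf4*, *Ddit3*, *Trib3* and *Chac1*; *Ccnb1* and *Cdk1*; at most 3 BCL2 family genes passing in the interaction, by size; and the 3 genes most like *Cdkn1a* and *Gdf15*. *Ddit3* occurs under 2 identifiers, of which the 1 that passed the filter was used. Alternatives were a pseudocount of 0.1, no filter, a mean FPKM of at least 5, median-of-ratios scaling, TPM, limma-voom, a replicate block, only the groups compared, a fold limit and leaving out each library; TPM without *Gm23935* and a GC correction were added after seeing the data. Python 3.11.15 and matplotlib 3.10.9 drew the figures.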

Additional observations from a re-analysis of the deposited data

Results flagged for a closer look

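Of the 10 genes, *Hmox1* and the list genes named in the text, those given here had a response to hemin that differed between the genotypes by the interaction term of limma. They are given as log2 differences of the responses (labelled KO minus control), each with its adjusted p-value. The cell type markers and the genes most like *Cdkn1a* and *Gdf15* are not covered. Groups of 3 libraries were not tested for outlying samples. Among the 10 p53 targets these were *Gdf15* at 2.75 (limma adjusted p = 2.5e-07), *Cdkn1a* at 0.49 (limma adjusted p = 0.020) and *Mdm2* at 0.38 (limma adjusted p = 0.013). Among the other p53 targets they were *Pmaip1* at 1.62 (limma adjusted p = 6.0e-06), *Plk3* at 1.55, *Epha2* at 1.5005 and *Trp53inp1* at 1.23 (limma adjusted p = 0.00019, 5.0e-05 and 0.00044), and *Perp* at 0.59 (limma adjusted p = 0.0018), of 7 positive and 1 negative in that list. *Trp53* itself was at -0.51 (limma adjusted p = 0.00090). Of the ATF4 pathway genes *Trib3* was at 3.25, *Chac1* at 2.31 and *Ddit3* at 0.65 (limma adjusted p = 2.0e-06, 0.00014 and 0.0034), of 6 positive in that list. Of the cell cycle genes and inhibitors *Cdkn1c* was at -0.61, *Cdkn2b* at 0.42 and *Cdk1* at 0.32 (limma adjusted p = 0.0053, 0.030 and 0.0496), and *Ccnb2* at -0.39 (limma adjusted p = 0.019), the cell cycle list having 4 positive and 1 negative in all. *Cdkn2b* and *Cdk1* missed the threshold when any of 6 and 9 of the 12 libraries was left out, and each passed in 3 of 6 scalings. Of the BCL2 family *Bcl2* was at -0.96, *Bcl2l1* at 0.80 and *Bik* at -0.72 (limma adjusted p = 0.0010, 0.029 and 0.035). *Hmox1*, which goes against its label under hemin, was at 2.81 (limma adjusted p = 1.8e-06).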

How the results depend on the processing

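Most log2 fold changes of the 10 genes kept their direction and their side of the threshold: 748 of 845 values under the alternatives did, 31 changed sign, 44 no longer passed and 22 now passed, and the cause was not tested. In TPM the values that changed sign were, for hemin in control, *Cdkn1a* -0.044, *Ccng1* -0.055, *Sesn1* -0.0094 and *Sesn2* -0.0013, for hemin in labelled KO *Ccng1* -0.022, *Mdm2* -0.13, *Sesn1* -0.24 and *Sesn2* -0.29, between genotypes under vehicle *Mdm2* 0.11 and *Sesn1* 0.044, and for the interaction *Bax* -0.0085. With limma-voom they were *Mdm2* -0.0088, *Sesn1* -0.15 and *Sesn2* -0.17 for hemin in labelled KO, *Mdm2* 0.031 under vehicle, *Sesn2* -0.050 under hemin and *Bax* -0.0063 for the interaction. In TPM without *Gm23935* they were *Mdm2* -0.022, *Sesn1* -0.14 and *Sesn2* -0.18 for hemin in labelled KO, *Mdm2* 0.032 under vehicle and *Sesn2* -0.030 under hemin, where the GC correction gave -0.058. Of the values that turned, *Ccng1* and *Mdm2* for hemin in labelled KO had passed.

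Leaving out 1 library turned 7 of the log2 fold changes, none of which had passed. For hemin in labelled KO *Sesn1* ranged from -0.0021 to 0.090 and *Sesn2* from -0.0054 to 0.082, lowest without labelled KO hemin replicate 1. Between genotypes *Mdm2* ranged from -0.055 to 0.015 under vehicle, highest without control vehicle replicate 1, and *Sesn2* from -0.060 to 0.099 under hemin, below 0 without control hemin replicate 3 or labelled KO hemin replicate 1 (-0.023). The interactions of *Zmat3* (-0.098 to 0.060), *Bax* (-0.11 to 0.38) and *Sesn1* (-0.21 to 0.010) turned without control hemin replicate 3. Across libraries left out, the counts were 0 to 2 rises and 3 to 5 falls for hemin in control, 1 to 2 rises in labelled KO, 5 to 6 higher and 0 to 1 lower between genotypes under hemin, and 2 to 4 positive and 0 to 1 negative interactions.

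For hemin in control the count of rises was 3 after the GC correction, and falls numbered 1 with only the groups compared and 2 at an absolute log2 fold change above 1. For hemin in labelled KO rises numbered 0 in TPM, 1 with limma-voom, 1 in TPM without *Gm23935* and 0 at the fold limit, and falls 5 with only the groups compared, 5 with limma-voom and 1 at the fold limit. Between genotypes the fold limit left 1 higher and 0 lower under vehicle and 2 higher under hemin, TPM gave 3 higher under hemin, and the GC correction gave 1 lower. For the interaction 1 positive remained in TPM, 1 with limma-voom, 1 in TPM without *Gm23935* and 1 at the fold limit, and the GC correction gave 4 positive and 1 negative. The median log2 fold change moved to -0.45 in TPM and -0.37 in TPM without *Gm23935* for hemin in control, to -0.26 with a mean FPKM of at least 5, -0.44 in TPM, -0.32 with limma-voom and -0.33 in TPM without *Gm23935* in labelled KO, to 0.29 in TPM under vehicle, and to 0.012 in TPM and 0.019 with limma-voom for the interaction. For hemin in labelled KO it changed sign to 0.0086 after the GC correction, where the median of all genes was 0.04.

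Beside these counts, all genes gave 9.35% rises for hemin in labelled KO, 9.03% higher under hemin and 2.45% positive interactions in TPM, and 18% positive interactions after the GC correction. After the GC correction 55.2% of calls over all genes rose for hemin in control and 54.2% in labelled KO. With the replicate number as a block, 4 of the 10 genes fell for hemin in control, *Mdm2* missing the threshold (adjusted p = 0.051), and 5 were higher in labelled KO under hemin, without *Ccng1* (adjusted p = 0.064), while no other call on the 10 genes changed. The numbers are only names, since same-numbered libraries did not deviate together. At 30 to 7537 fragments per library for the 10 genes, depth limits *Gdf15*, *Bbc3* and *Phlda3* in control hemin most.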
